A study of Mus musculus with 2 samples.

Results

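Spliced prefix chains are strings of joined exons that copy the 5' part of a longer transcript and lack at least 1 of its introns at the 3' end. They were taken from the deposited models of annotated genes in the incomplete splice match class with the subtype prefix and 2 or more exons. Only intron chains with at least 2 reads in each of the 2 libraries were kept. This gave 365 chains of 310 genes, of the 138819 spliced chains of annotated genes found in either library. The members were chosen by their read numbers in both libraries, so their abundance is a description and supports nothing further. The tissue was left cerebral cortex of mice at 18 to 20 months, and each library used 2 µg of RNA. The strain was B6CASTF1/J, the F1 offspring of C57BL/6J and the wild-derived strain CAST/EiJ. Both libraries carry the same donor entry, and the labels name no treatment, allele or contrast and do not state whether separate animals were used, so the spread between the libraries may be technical. The labels give the sex as female in 1 field and male in another.

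In a nascent transcript each intron is removed by the spliceosome, which joins a 5' splice site to the next 3' splice site, and the 3' end is made by cleavage and polyadenylation after a signal that is most often AATAAA or ATTAAA. A transcript can lack its last introns in more than 1 way. It can be cleaved early, inside an intron or exon, which gives a shorter RNA with a different 3' end and often a shorter protein. It can also run to the usual 3' end while a late intron stays unspliced, and then its intron chain looks like a prefix although the molecule is full length. Neurons are known for long genes, for retained introns and for alternative 3' ends.

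The sequences at the ends of several chains are shown first because the chains are grouped below by the position of the 3' end. The bases are mm10, read from the GENCODE M21 transcript sequences 5' to 3' on the transcript strand, and only bases under an annotated exon could be read. Lower case marks the last 10 bases of the model and capitals mark the next 20 genomic bases. The first 3 ends were chosen, after their values were seen, as A-rich, and the last pair as contrasts.
Son (chr16:91654690-91654719, plus): aaagaagcatAAAAAGCACAAAAACAAAAA
Kmt2e (chr5:23485442-23485471, plus): atgagaccagAAGGAAAAAAGGAAAAAAAG
Map3k10 (chr7:27664160-27664189, minus): taaattaaaaGTGGATTAAAAAAGAAAAGA
Pnisr (chr4:21875247-21875276, plus): ttttgttaaaCTCTTGCACCTTAATTTTAT
Dcun1d5 (chr9:7207031-7207060, plus): ccttaaagtgAAGATGTCCGTTGAGTGTCA
The 20 bases after the end held 16 A in Son, 15 in Kmt2e and 12 in Map3k10. They held 4 in Pnisr and 5 in Dcun1d5. A count over all chains is void, because the 20 bases could be read for 120 of 365 ends in replicate 1 and 114 in replicate 2. The last 10 bases printed for Map3k10 also hold ATTAAA, a poly(A) signal motif. In the search described below, AATAAA or ATTAAA was found before the Map3k10, Pnisr and Dcun1d5 ends in both libraries. Neither motif was found before the Son and Kmt2e ends in either library. Whether the A-rich bases or these motifs bear on where these models end was not tested.

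Most of the chains were covered by few reads. The member chains held 2585 reads in replicate 1 and 2472 in replicate 2, with a median of 3 and 4 reads per chain and a highest value of 97 and 59. At least 5 reads in each library were found for 111 chains and at least 10 for 53. Just inside the threshold, 159 chains had 2 reads in their lower library and 53 had 2 in both. Just outside it, 325 prefix chains had 2 or more reads in 1 library and 1 in the other, the deepest being a chain of the RNA helicase gene Ddx5 at 8 and 1 reads. Of the prefix chains with 2 or more reads in replicate 1, 44.7% were members, and of those in replicate 2, 41.2%. The same shares were 52.3% and 53.9% for suffix chains, which lack introns at the 5' end. For new combinations of known splice sites 2845 chains recurred of 5640 and 5689, and for chains with new splice sites 928 recurred of 2901 and 2608.

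The libraries held 871524 and 839150 reads, of which 678244 and 586048 were on spliced models of annotated genes. The member chains took 0.381% of these spliced reads in replicate 1, with a 95% interval by Wilson's method of 0.367% to 0.396%. In replicate 2 they took 0.422%, with an interval of 0.406% to 0.439%, and the mean was 0.401% ± 0.029 (SD, n = 2). These read numbers chose the members, so nothing is read from the gap between the libraries. All prefix models with 2 or more exons took 0.984% and 1.20%. Such intervals cover counting error only, and reads are not shown to be independent molecules. In bulk tissue fewer cells of a type and less RNA per cell cannot be told apart. The tissue label was checked on cortical markers: Slc17a7 of excitatory neurons had 885 and 661 reads and Gad1 of inhibitory neurons 343 and 263, while the cerebellar markers Pcp2 and Cbln3 had 0. Xist had 34 and 29 reads and the Y-linked genes Ddx3y, Uty, Eif2s3y and Kdm5d had 0 in both libraries.

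The class name says that these models stop early, and the data went against it for many of them. Each end was compared with the annotated transcripts that share the whole chain as their 5' part and splice on. In both libraries, 121 of 365 chains (33.2%) ended within 100 nt of, or past, the 3' end of such a transcript. Another 168 chains (46.0%) ended before it in both libraries and fell into the same class in each. Of these, 73 ended within 100 nt of the annotated 3' end of another transcript of the gene. A further 73 ended more than 10 nt past a 5' splice site, 15 within 10 nt of such a site and 7 inside an exon. The further 73 are called the intron class. In both libraries 10 of them held 1 whole intron of the most-read matching transcript unspliced, so these ended beyond that intron. No annotated transcript had the whole chain as its 5' part and spliced on for 47 chains, and 29 chains changed class between the libraries. The chains are therefore called prefix chains here, and only the 168 are said to end early.

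**Figure D1:**
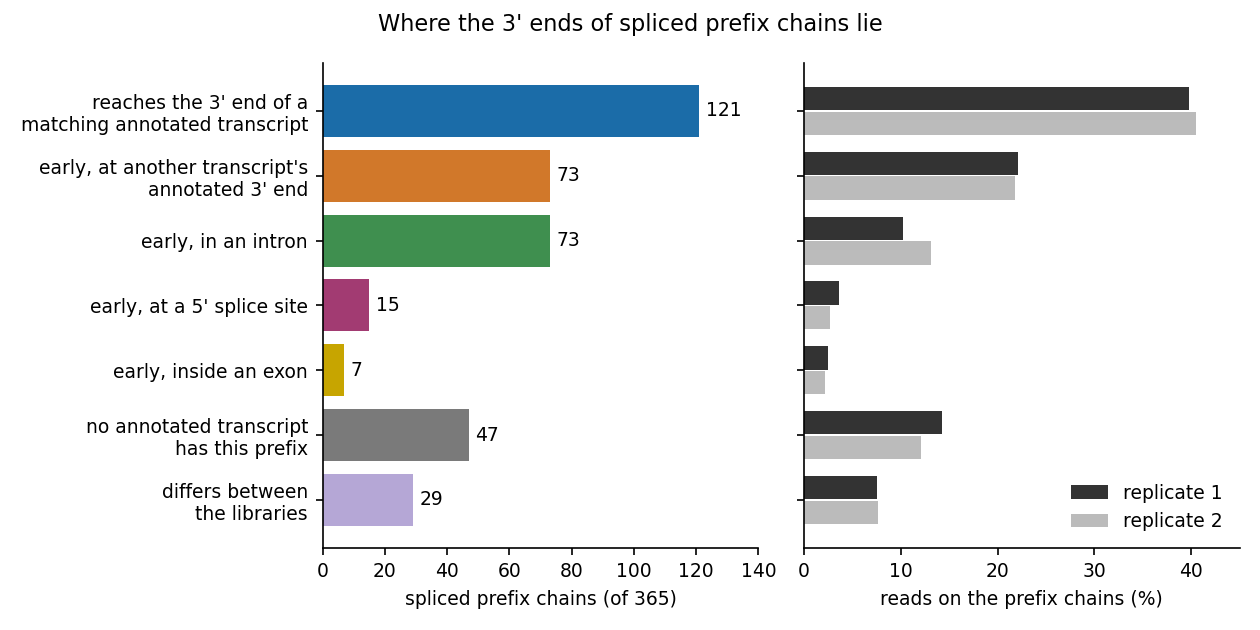
Number of spliced prefix chains in each class of 3' end (left) and percent of the reads on these chains in replicate 1 and replicate 2 (right). The class that reaches the 3' end of a matching annotated transcript is the largest on both scales, with 121 of 365 chains and 39.7% and 40.5% of reads.

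In 115 of these 121 chains, every intron that was missing against the most-read matching transcript lay unspliced inside the model in both libraries, and in 4 none did. The end reached was within 100 nt of that of the most-read matching transcript, or past it, for 108 chains in both libraries. For 8 chains it was the end of another matching transcript. Cryzl1 is one of these: it stopped 923 nt into a 960 nt intron of Cryzl1-201, at 5016 nt before that transcript's end, and lacked 4 introns. Exactly 1 unspliced intron was held by 90 of the 121 chains in both libraries, and 89 chains missed 1 intron in all. The matching transcript was annotated as protein coding for 115 of them. The first missing intron interrupted the coding sequence in 94 chains and the 3' UTR in 22. Over all chains with a matching transcript, 279 ran more than 10 nt past the 5' splice site of the first missing intron in both libraries, which is 87.7% of 318.

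Cdk17, a PCTAIRE-family cyclin-dependent kinase, had the most reads of a gene on an assembled chromosome. Its 16-exon chain (chr10:93160875-93241328, plus strand) had 78 reads in replicate 1 and 42 in replicate 2. Cdk17-201, the spliced form, had 132 and 96. The chain took 29.3% and 24.3% of the gene's spliced reads, a mean of 26.8% ± 3.57 (SD, n = 2). It ended on the same base as Cdk17-201 in both libraries and held the last coding intron of 544 nt (chr10:93239044-93239587) unspliced.

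Ptgds encodes lipocalin-type prostaglandin D synthase, an abundant brain transcript. Its 6-exon chain had 60 and 55 reads, beside 2863 and 1707 on the spliced Ptgds-201. The unspliced intron was 455 nt in the 3' UTR (chr2:25466832-25467286, minus strand), and the chain was 1.51% and 2.28% of the gene's spliced reads. So the chain was among the deepest by reads and among the small ones by share. Mlf2, a myeloid leukemia factor family gene, had 44 and 58 reads on an 8-exon chain with a 177 nt 3' UTR intron unspliced (chr6:124935446-124935622, plus strand), against 652 and 518 on Mlf2-202. Its share was 5.29% and 8.33%.

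Rasl10a, a Ras-like small GTPase gene with 2 exons in the chain, had 26 and 31 reads and a 240 nt coding intron unspliced. Psip1, which encodes a chromatin-bound transcription coactivator, had 27 and 24 reads and a 1041 nt coding intron. Mbd3, a subunit of the NuRD chromatin remodelling complex, had 31 and 20 reads on 1 chain and 14 and 15 on a second. Both Mbd3 chains held the same 76 nt intron. Srsf2, an SR splicing factor, had 25 and 21 reads on a chain that ran through a 1059 nt 3' UTR intron, which is 17.6% and 19.1% of its spliced reads. In all of these genes both libraries held the chain at more than 10 reads.

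The unspliced introns of chains that reached the 3' end had a median length of 351 nt over 111 distinct introns (quartiles 163 and 886 nt), and 33.3% were under 200 nt. The first missing intron of chains that ended early had a median of 2578 nt over 163 introns, and 4.29% were under 200 nt. For all 79476 introns of annotated transcripts with 2 or more reads in each library the median was 1317 nt and 14.3% were under 200 nt. For the 9540 last introns among them the values were 1184 nt and 13.6%. These are descriptions of introns, which are not replicates, and they carry no test. A model that runs to the 3' end must also span the intron, so length is not fully separate from the class. Among the 87 unspliced introns in coding sequence, 25 had a length that is a multiple of 3 (28.7%), beside 33.2% of all 79476 introns.

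**Figure D2:**
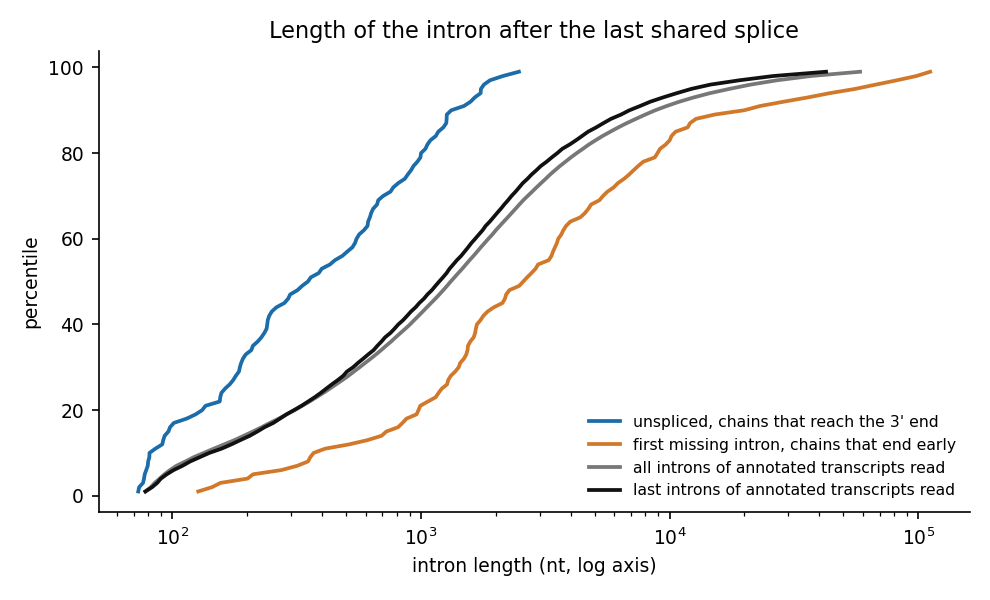
Percentile against intron length (nt, log axis) for unspliced introns of chains that reach the 3' end, the first missing intron of chains that end early, and all and last introns of annotated transcripts with reads in both libraries. The medians lie at 351, 2578, 1317 and 1184 nt.

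Whole sequence could be read for 34 of the 87 unspliced coding introns, those that another annotated transcript covers as exon, and 1 of them is shown as an example. Rhbdl1, a rhomboid-family membrane protein gene, had 15 and 16 reads on a 7-exon chain, against 20 and 30 on the spliced Rhbdl1-201. The chain held an 80 nt intron, whose first and last pair of bases, the splice site dinucleotides, are in capitals.
Rhbdl1 (chr17:25835057-25835136, minus): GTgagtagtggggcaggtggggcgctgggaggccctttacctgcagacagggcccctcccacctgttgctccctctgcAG
Read on in the frame of the coding sequence, this intron held a stop codon, as did 29 of the 34 that could be read. With 34 of 87 read, that count is void for the group. At the 5' splice site of the unspliced intron, with 3 exon bases in lower case and 6 intron bases in capitals, Ptgds read atgGTAAGC, Mlf2 catGTAAGT, Psip1 gcaGTAAGT and Mbd3 cagGTGCTG. Ptgds, Mlf2 and Psip1 hold GTAAG at the intron start. Mbd3 does not, and neither do the Rhbdl1 intron above and the 1059 nt intron of Srsf2. A count of such letters over all unspliced introns is void, since they could be read for 65 of 111.

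Among the 73 chains that ended early at the annotated 3' end of another transcript, 29 had more reads than the matching transcript in both libraries (39.7%). The same was true of 21 of 73 chains of the intron class (28.8%), 4 of 15 at a 5' splice site and 4 of 7 inside an exon. It was also true of 13 of 29 that differed between the libraries and 7 of 121 that reached a matching end (5.79%). The nearest annotated end in replicate 1 belonged to a retained-intron transcript in 30 chains and to a protein-coding transcript in 26. It belonged to a transcript marked for nonsense-mediated decay in 7 and to a processed transcript in 8. The median number of missing introns was 4 among the 73 chains at another annotated end, with a maximum of 21. It was 5 in the intron class and 1 in the class that reached a matching end. Only full-splice reads of the matching transcript are counted, so partial reads of a transcript with many more introns are left out. Nothing is therefore read from the differences between the classes in these counts.

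Map3k10, a mixed-lineage kinase that acts upstream of JNK, had 47 and 41 reads on a 4-exon chain (chr7:27664180-27674581, minus strand). Map3k10-201, which splices 6 further introns, had 4 and 7 reads. The chain was 64.4% and 54.7% of the gene's spliced reads, a mean of 59.5% ± 6.87 (SD, n = 2), the highest mean share among members with at least 20 spliced reads of the gene in each library. Its last exon ran 218 nt past the 5' splice site. The exon ended within 100 nt of the 3' end of the retained-intron transcript Map3k10-203, before the A-rich bases printed above. The last bases of the model, also printed above, hold the poly(A) signal motif ATTAAA.

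Pnisr, a nuclear SR-related protein gene, had 31 and 28 reads on an 11-exon chain that read through the last intron of 240 nt and ended within 100 nt of the end of Pnisr-204. Its matching transcript Pnisr-201 had 9 and 7 reads. The share was 42.5% and 29.5%. Sik3, a salt-inducible kinase, had 25 and 19 reads on a 14-exon chain that lacked 11 introns, of 37 and 38 spliced reads of the gene. Synpo, which encodes the actin-associated spine protein synaptopodin, had 21 and 26 reads and a share of 43.8% and 44.1%. Caprin1, an RNA granule protein gene, had 22 and 22 reads on an 18-exon chain and 43 and 27 on Caprin1-201. In Pnisr and Sik3 the share differed by more than 10 points between the libraries, and in Synpo the shares were nearly equal.

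Lrp6, a co-receptor for Wnt, showed the most missing introns among chains with 5 or more reads in each library. Its 2-exon chain had 19 and 10 reads and ended 878 nt into the following intron, within 100 nt of the end of Lrp6-205, with 21 introns missing. The full Lrp6-201 had 0 and 2 reads. Kmt2e, a trithorax-family gene, had 10 and 11 reads on a chain that lacked 13 introns, and Phf20l1, a chromatin reader, had 14 and 19 on a chain that lacked 12. For these genes the matching transcript that splices on had few or no full-splice reads: those of both Kmt2e and Phf20l1 had 0 reads in each library. Reads on other chains of the gene are not in that count. The Phf20l1 chain was 26.9% and 33.9% of the gene's 52 and 56 spliced reads, so most were on other chains. Lrp6 had only 23 and 14 spliced reads in all, and Kmt2e 12 and 18.

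The 73 chains of the intron class had no annotated end within 100 nt. They held 265 and 325 reads, 10.3% and 13.1% of all reads on members. Kif5c, a kinesin-1 heavy chain of neurons, had 14 and 13 reads on a 23-exon chain (chr2:49619298-49752706, plus strand) that ended on the same base, 353 nt into an intron of 4985 nt, in both libraries. Kif5c-201 had 199 and 242 reads. Nav3, a neuron navigator gene, had 10 and 28 reads on a 3-exon chain, and Syt1, the synaptic vesicle calcium sensor synaptotagmin 1, had 5 and 7. Nav3 lay 1963 and 1988 nt into its intron and was 66.7% and 71.8% of the few spliced reads of the gene, 15 and 39. The ends of 58 of the 73 chains lay within 20 nt of each other in the libraries.

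The 15 chains that stopped at a 5' splice site ended within 10 nt of the end of an annotated exon. Sec62, a component of the endoplasmic reticulum translocation machinery, had 38 and 21 reads on a 4-exon chain (chr3:30792875-30810026, plus strand), against 174 and 157 on Sec62-201. Eif5b, a translation initiation factor, had 11 and 8. The kinesin-1 heavy chains Kif5b and Kif5c had 9 and 5, and 8 and 6. The last 30 exon bases of the Sec62 and Eif5b chains are shown with every A in capitals, because the median number of A was higher in this class than over exon ends in general.
Sec62 (chr3:30809997-30810026, plus): AAAgAtggtgAAAAggAAgAttccAAAAAg
Eif5b (chr1:38021782-38021811, plus): gAggAgcttgAAgccAAAcgAAAAgAAgAg
The last 50 exon bases held 32 A in Sec62, a median of 17 over the 15 chains (range 9 to 32) and a median of 13 over 75325 exon ends of annotated transcripts with reads (quartiles 10 and 16). At least 20 A were found in 5 of the 15 chains and in 7.31% of all exon ends. Whether these letters bear on the ends was not tested.

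The 7 chains that ended inside an exon included Son, a large nuclear speckle protein needed for splicing. Its 3-exon chain (chr16:91647879-91654699, plus strand) had 22 reads in each library, 53.7% and 59.5% of the gene's spliced reads. Son-202 had 1 and 1 full-splice reads, and reads that do not hold all of its introns are not in that count. The model of the chain was only 362 nt long in both libraries and lacked 9 introns of Son-202. Whether read length bears on this share was not tested. The end of the chain lay at -5881 nt from the end of its last exon as annotated, on the same base in both libraries and just before the A-rich stretch printed above. Ccnl2, a cyclin L gene, had 28 and 18 reads, and its ends differed by 492 nt between the libraries.

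**Figure D3:**
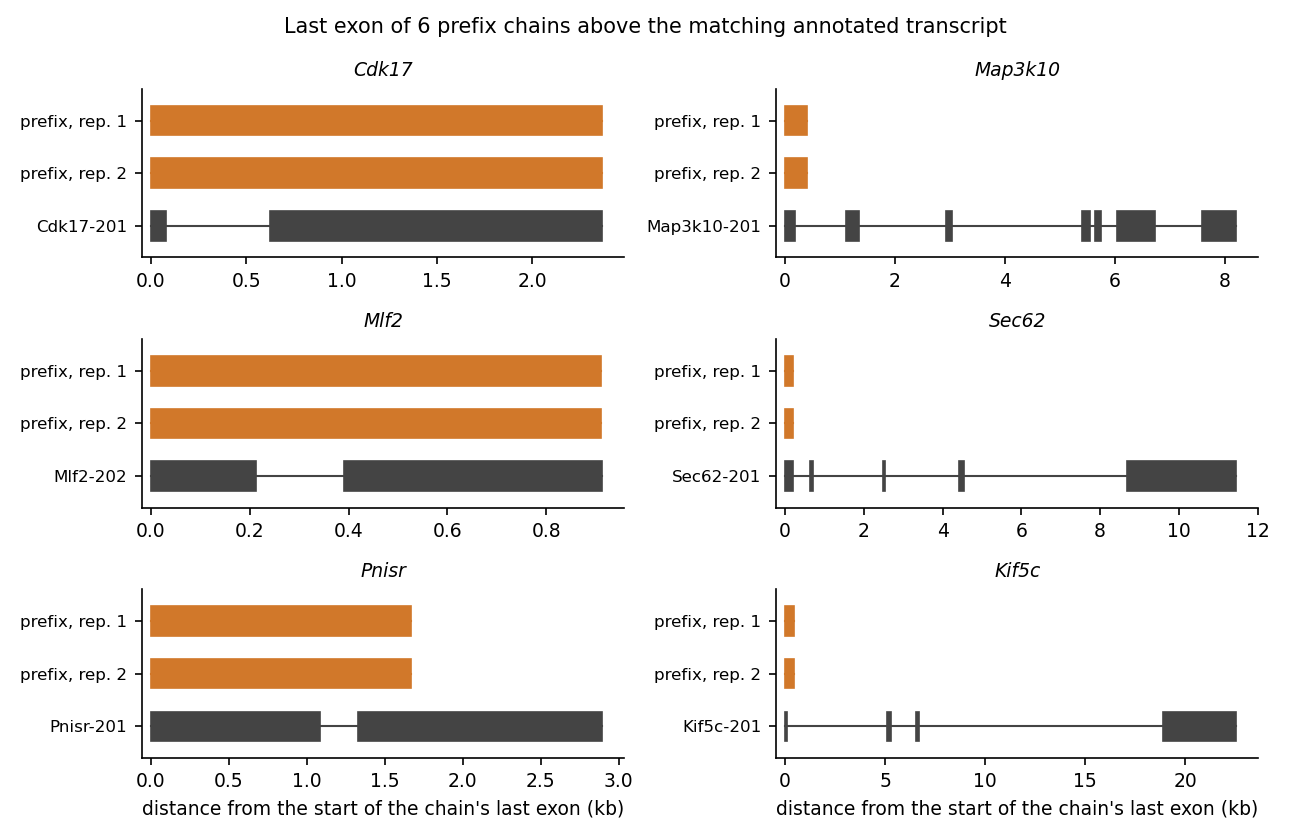
The last exon of 6 prefix chains in each library (upper boxes) above the exons of the matching annotated transcript with the most reads (lower boxes), against distance from the start of that exon (kb). Cdk17 and Mlf2 cover the last intron and reach that transcript's end, Pnisr covers it and stops early, Map3k10 and Kif5c stop inside the next intron and Sec62 stops at the exon's end.

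Poly(A) signals were looked for where the bases could be read. AATAAA or ATTAAA was searched on the transcript strand in the last 50 bases of the model. Of chains that reached a matching transcript's 3' end, 86.8% of 114 in replicate 1 and 85.8% of 113 in replicate 2 held 1 of these motifs. Of chains that ended early at another annotated end, 66.2% and 67.6% of 71 did. Of the 15 chains at a 5' splice site, 6.67% did in both libraries. The background was 8808 of 11740 annotated transcripts with 2 or more full-splice reads in each library. For all chains together and for the intron class the count is void, since 75.3% and 24.7% of ends in replicate 1 could be read. A match is a description of letters and not a mapped cleavage site. The classes at an annotated end are defined by that end, which the models may have taken from the annotation. Their motif shares are therefore not independent of the annotated ends.

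The ends of a chain lay within 20 nt of each other in the libraries for 289 of 365 chains (79.2%), and on the same base for 245. The share was 86.4% for suffix chains, 85.0% for new combinations of known splice sites and 84.9% for chains with new splice sites. Prefix ends sat exactly on an annotated end in 66.3% and 65.8% of chains, and suffix ends in 91.1% and 90.7%. Agreement on an annotated position is not independent, because the models may have taken it from the annotation. Off annotated positions in both libraries, 85 of 110 prefix chains lay within 20 nt (77.3%) and 66 were on the same base. The same share was 68.8% of 292 suffix chains, 67.6% of 145 new combinations and 70.1% of 144 chains with new splice sites. How 1 end per model was set from its reads is not stated by the labels or file headers.

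For 47 chains no annotated transcript of the gene had the whole chain as its 5' part and spliced on, so they have no annotated match. A chain that lies inside an annotated transcript with a further 5' exon would also count here. Each of the 47 was the 5' part of a longer unannotated model in the table of both libraries. The longer model with the most reads was a new combination of known splice sites for 26 chains in replicate 1 and 30 in replicate 2. Of all prefix models, 20.8% in replicate 1 and 21.5% in replicate 2 had no annotated match, and a longer model was found in the same table for 710 of 712 and 809 of 810. In 36 of the 47 the end was within 100 nt of an annotated 3' end in both libraries. AC149090.1, a gene on the unplaced scaffold JH584304, gave 13 of the 47 and 16 members in all, with 348 and 265 reads. Oaz1, which encodes the ornithine decarboxylase antizyme, had 6 and 7 reads on a chain whose longer model had 934 and 869. Rbmx, an X-linked RNA-binding protein gene, had 22 and 7 reads, 53.7% and 25.9% of its spliced reads.

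Whether a chain was called a prefix could depend on the library. A further 77 chains of 60 genes had 2 or more reads in both libraries but were called prefix in only 1 table. Of these, 72 had no annotated match, and the other table called 49 a new combination and 11 a chain with new splice sites. Aplp2, a homologue of the amyloid precursor, had 257 reads called prefix in replicate 2 and 255 reads on the same 18-exon chain called a new combination in replicate 1. Suds3, a subunit of a histone deacetylase complex, had 90 reads called prefix in replicate 1 and 92 called a new combination in replicate 2. In Aplp2 and Suds3 the read numbers were thus close between the libraries while the class was not. Other such chains were less even. A 5-exon chain of AC149090.1 had 15 reads called prefix in replicate 1 and 3 called a new combination in replicate 2. The Aplp2 and Suds3 chains were chosen after their values were seen and neither is a member.

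The members' share of their gene could be followed for 288 chains whose gene had 20 or more spliced reads in each library. The median of the mean shares was 4.49% (quartiles 2.12% and 9.34%), and 66 chains were above 10%. In 78 of the 318 chains with a matching transcript, the prefix had more reads than that transcript had full-splice reads in both libraries. In 40 of the 318 the matching transcript had no full-splice read. Son, Map3k10, Sik3 and Btbd8 were above 50% of spliced reads on average. Of all reads of the gene, Map3k10 held 56.9% and Son 54.4%, but Sik3 48.9% and Btbd8 40.2%. Synpo fell from 43.9% of spliced reads to 21.8% of all reads. Enpp5, an ectonucleotide pyrophosphatase/phosphodiesterase family gene, had 42 and 36 reads and 38.5% and 41.4%, but its model ran 3639 nt past the 5' splice site in replicate 1 and 459 nt in replicate 2. Cryzl1, a quinone oxidoreductase-like gene, had 35 and 34 reads and 27.6% and 27.4%. Jade1, a histone acetyltransferase cofactor, had 14 of 35 and 10 of 27 spliced reads. Rab10os, an antisense RNA, had 19 and 11 reads and 48.7% and 33.3%, and reads of it and of the gene on the other strand may not be fully separate.

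**Figure D4:**
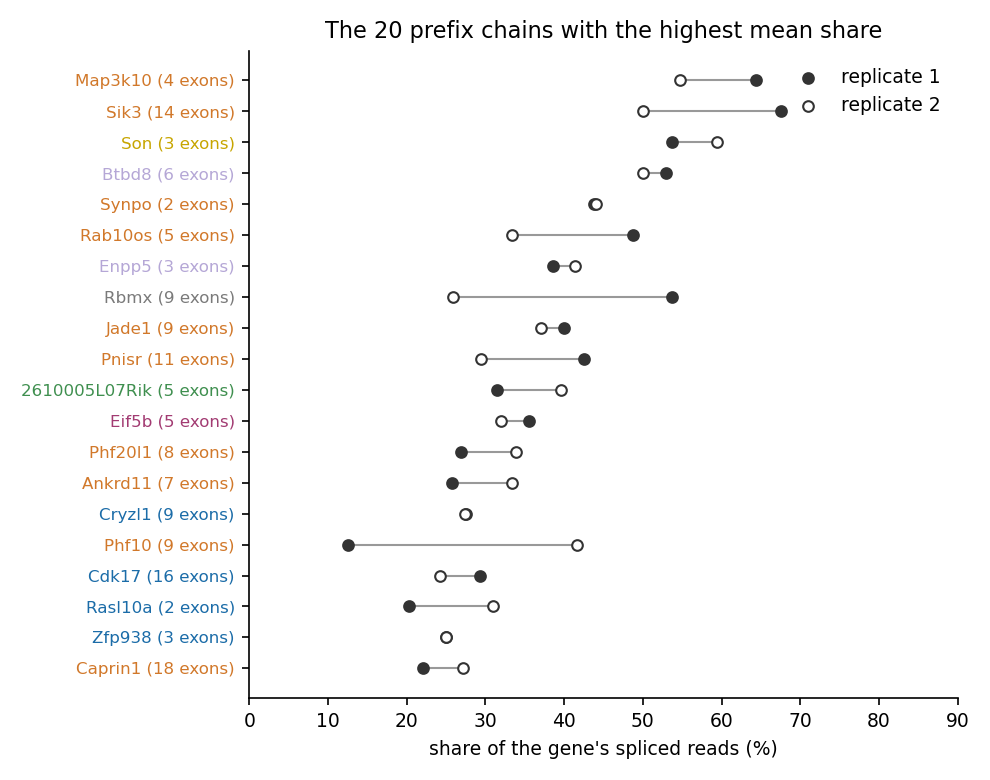
Share of the gene's spliced reads (%) taken by the 20 prefix chains with the highest mean share, in replicate 1 (filled) and replicate 2 (open), with names coloured by class of 3' end (blue reaches a matching transcript's end, orange another annotated end, green intron, purple 5' splice site, yellow exon, grey no annotated match, violet differs). Map3k10 leads at 64.4% and 54.7%, and Rbmx has 53.7% and 25.9%.

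The shares were compared between the libraries by Fisher's exact test per chain, adjusted by Benjamini and Hochberg over all 10173 spliced chains tested, of which 8 were called (0.0786%). Of the members, 119 were deep enough to test and 0 were called at an adjusted p below 0.05. The smallest adjusted p among them was 0.300. At an unadjusted p below 0.05 there were 8 of 119 members (6.72%), beside 5.58% of all chains tested. The median difference of replicate 2 from replicate 1 was 0.138 percentage points over the members and -0.219 over all chains tested, and the members' median absolute difference was 2.21 points. The rule already required 2 or more reads in each library, which keeps out the most unequal chains, and all chains tested had no such requirement. Nothing is therefore read from the members' count. The other 246 members held too few reads to test.

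**Figure D5:**
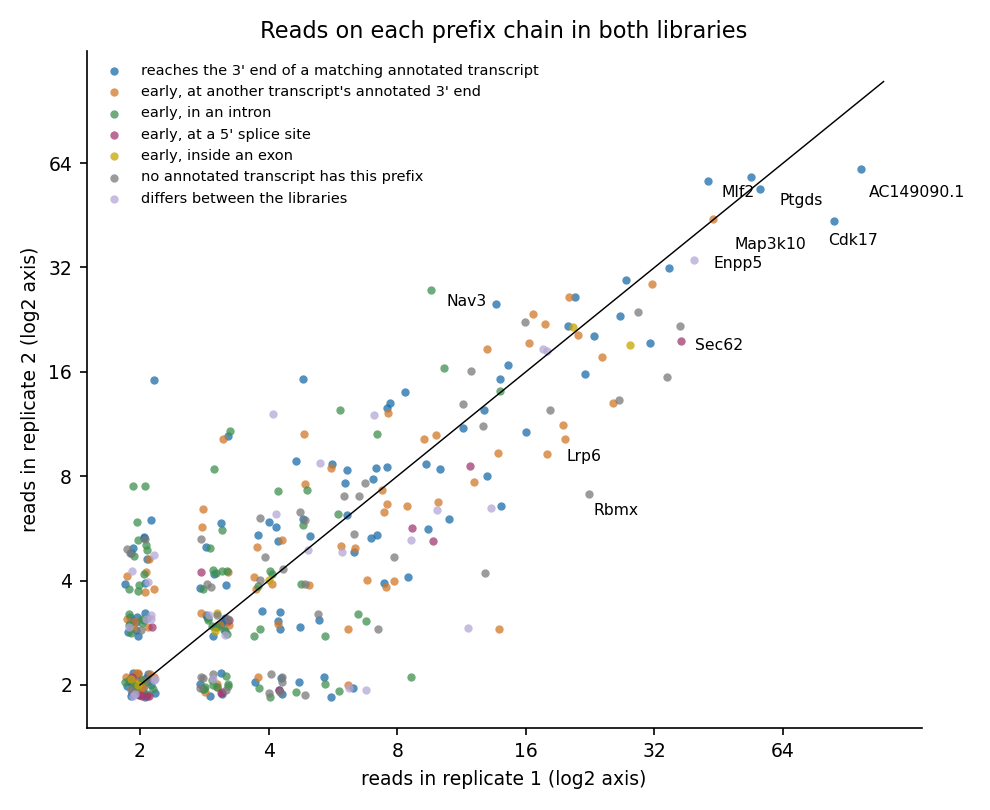
Reads in replicate 2 against replicate 1 for the 365 prefix chains (log2 axes, points jittered slightly, coloured by class of 3' end), with the line of equal reads. The cloud begins at 2 reads on both axes because the rule requires it, and AC149090.1 lies farthest out with 97 and 58 reads.

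Several genes gave more than 1 member. After AC149090.1, Ssbp4 and Dlgap1 gave 4 chains each, and Araf, Rhbdl1, Hnrnpd and Fkbp8 gave 3 each, while 277 of the 310 genes gave 1. Ssbp4, a single-stranded DNA-binding protein gene, held 41 and 51 reads over its chains. Dlgap1, a scaffold of the postsynaptic density, held 18 and 18, and Araf, a Raf-family kinase, 45 and 27. Chains of 1 gene share exons and are not separate observations of it.

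Gene lists were drawn up to see which functions the chains touched, and counts are over listed genes with 20 or more spliced reads in each library. Over all such genes 235 of 5335 (4.40%) had a member. Of the RNA processing list 5 of 25 did, and its members were Pnisr, Srsf2, Son, the RNA-binding protein gene Hnrnpa2b1 with 8 and 14 reads, and the helicase Ddx5. Of the postsynaptic list 5 of 16 did: Gria2, an AMPA receptor subunit, had 9 and 6 reads, Baiap2, an actin regulator, 6 and 3, Camk2b, a kinase subunit, 3 and 5, and Ppp3ca, the calcineurin catalytic subunit, 2 and 5. Nrgn, which binds calmodulin, was the fifth. Gria2 and Camk2b reached a matching transcript's 3' end with a 3' UTR intron of 388 and 390 nt unspliced, and Ppp3ca ended 1257 nt into an intron.

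Of the presynaptic list 2 of 22 had a member, Syn1 (synapsin I, 13 and 12 reads, a 927 nt coding intron unspliced) and Syt1. Of the cytoskeletal list 2 of 21 did, Kif5c and Map2, the dendritic microtubule protein, with 3 and 3 reads. Map1b, a microtubule-associated protein gene, also had a member with 5 and 5 reads but only 8 spliced reads in each library, so it is not in this count. Of oxidative phosphorylation genes 3 of 20 did (Atp5c1 with 3 and 3 reads, Cox7a2 with 2 and 2, Uqcrc1 with 2 and 2). Of chaperone and ubiquitin genes 2 of 12 did, Hspa8 with 3 and 11 reads and Hsp90aa1 with 13 and 3. Of pumps and calcium genes 1 of 10 did (Atp2a2), and of myelin genes 1 of 9 (Sept4). No member was found among 19 cytosolic ribosome genes, 15 astrocyte and lipid genes and 12 genes of 3' end processing or of intronic polyadenylation known elsewhere. Among listed genes, the 20 bases after the end held 19 A in Map2, 14 in Baiap2 and 13 in Hsp90aa1. They held 10 in Atp2a2 and 3 in Syn1. These genes were picked with the values known, and whether the letters bear on the ends was not tested. A gene without a member need not lack prefix reads, since a member needs 2 reads in each library. The lists differ in read depth, no list was tested against the others, and nothing is read from their order.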

How the data were processed

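RNA of the left cerebral cortex was measured in 2 libraries of 1 group, so no condition was compared. Per the file headers, each deposited table holds whole-number read counts per transcript model for 1 library, and a deposited annotation gives the exons of each model. The source column of that annotation reads TALON, and the authors used mm10 and GENCODE M21 per the labels and deposited notes. The aligner, its version, the filters and the way model ends were set were not given in the sources used here.

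Intron chains were rebuilt from the exons and matched between libraries by gene and chain. Spike-in models were left out. Chains absent from a table count as 0 reads. The members and all lists were chosen with earlier results of these data known. A matching transcript shares the whole chain as its 5' part and has more introns, and the one with the most full-splice reads gave intron lengths. Shares are of spliced reads of the gene, in percent, and rest on 871524 and 839150 reads in all. Fisher's exact test was run on chains with 10 or more reads in total and genes with 20 or more spliced reads per library. Tested on simulated data over 10173 chains, it recovered 26.5% of 200 chains shifted by 20 points in genes with 100 or more reads, with 2 false calls. No mm10 genome was used, so bases were read from GENCODE M21 transcript sequences, and a sequence count was taken as void below 80% coverage. Poly(A) signals were therefore counted by class of 3' end.

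Named were the 15 chains with the most reads relative to library size, the 10 with the highest share, any called chain, the 8 with the most missing introns, the 5 genes with the most chains and up to 4 genes per list. Dcun1d5, Caprin1, Nav3, Ccnl2, Oaz1, Aplp2, Suds3 and Nrgn were named after their values were seen. Some genes that the rule takes are not printed. Work used Python 3.11.15, pandas 2.3.3, NumPy 2.4.6, SciPy 1.17.1 and matplotlib 3.10.9.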

Additional observations from a re-analysis of the deposited data

Results flagged for a closer look

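Prefix models also appeared at antisense and intergenic loci, outside annotated genes and outside every comparison of the report. They held 9 reads on 9 models in replicate 1 and 60 reads on 25 models in replicate 2. These are sums over models, so they cannot be set against the 3 counts that a single count of 0 allows. There were no control samples, and the difference between the libraries was not tested.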

How the results depend on the processing

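The count of 365 chains moved to 111 at 5 or more reads in each library and to 1041 at 1 or more. With reads of the chain counted whatever its class it was 442, within 1.5 times. Without replicate 1 there were 886 chains with 2 or more reads in replicate 2. Without replicate 2 there were 816 with 2 or more reads in replicate 1. The share of spliced reads was 0.271% at 5 or more reads and ranged from 0.381% to 0.422% over single libraries. Ends within 20 nt of each other fell from 79.2% to 73.4% of chains at 5 nt. Chains that reached a matching transcript's 3' end rose from 33.2% to 40.1% when weighted by reads, an alternative chosen after the data were seen. Without AC149090.1 this share was 34.1% and the share of spliced reads 0.353%. The poly(A) signal share of chains at an annotated end fell from 78.1% to 67.2% with AATAAA alone. The count of 0 members with a different share held under all 5 alternatives run. All of them keep the rule that leaves out the most unequal chains, so nothing is read from this count. Of all alternatives run for the main results, 30 stayed within the spread or on the same side, 7 moved and 1 was weaker. Shares of single named chains were also taken over all reads of the gene, and 13 stayed while 9 moved. The A-rich count and its alternatives were not run, because too few ends could be read. No paired analysis was possible because there is 1 group. Depth limits these values: only 111 of 365 members had 5 or more reads in each library, and with 2 libraries an SD rests on a pair of values.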
